A study of Mus musculus with 45 samples.

Results

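Acetylation of histone H3 at lysine 9 (H3K9ac) in the hippocampus of CK-p25 mice was compared with that of CK control mice 6 weeks after p25 was induced. The comparison uses 6 of the 45 libraries of the series: the 3 chromatin immunoprecipitation (ChIP) libraries labelled CK-p25 at 6 weeks and the 3 labelled CK (control) at 6 weeks. All came from females, which were 4.5 months old by their labels. The controls were littermates, and all 6 libraries were made with the same lot of the H3K9ac antibody. Reads had been counted by the submitters in 44165 domains, that is, regions enriched for the mark, which are shared by all 23 H3K9ac libraries. Of these, 38193 held enough reads in the 12 libraries of the CK-p25 experiment (2 and 6 weeks) to be tested. Domains are named by the identifier in the deposited files and by position on the mm9 build. The annotation at hand is on GRCm38, a different build, so no gene was assigned to a domain, the gene lists drawn up for the tissue were not used, and the tissue could not be checked against marker genes.

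H3K9ac is placed by acetyltransferases at active promoters and enhancers and removed by deacetylases, so its level follows the activity of nearby genes. In CK-p25 mice, p25 is expressed in forebrain neurons under the control of the Camk2a promoter when doxycycline is withdrawn. p25 is a cleaved form of p35 that keeps the kinase Cdk5 active, and the line is known for DNA damage and loss of neurons, with reactive glia, in the weeks after induction. The tissue was whole hippocampus, in which a change in the number of cells of a type and a change in acetylation per cell cannot be told apart. Other cells than those that express p25 contribute to every value.

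Depth differed between the 6 libraries. CK replicates 1, 2 and 3 held 3162511, 1547220 and 996369 reads in domains, and CK-p25 replicates 1, 2 and 3 held 4085550, 3008308 and 1308372. The labels' cross correlation, which rises with enrichment of the immunoprecipitated DNA, was 0.137, 0.0776 and 0.0640 in CK and 0.177, 0.144 and 0.0738 in CK-p25 libraries, in the same order. Replicate 3 of each group was thus the shallowest and least enriched, and the 2 deepest and most enriched CK-p25 libraries exceeded 2 of the 3 CK libraries in both respects. The part of depth and enrichment in the counts below was tested only by leaving libraries out and by a fit with cross correlation as a covariate, whose values are given beside them. Which animals went into a library is not stated, so the p-values refer to the spread between libraries, which may be partly technical.

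H3K9ac differed between CK-p25 and CK mice at 1011 domains (2.65% of those tested): it was higher in CK-p25 mice at 504 (1.32%) and lower at 507 (1.33%), by edgeR's quasi-likelihood test at an adjusted p under 0.05. Gains had a median log2 change of 0.91 (median standard error, SE, 0.21) and losses one of -0.48 (median SE 0.11), against 0.00 over all tested domains. The scaling of the libraries takes most domains as unchanged, so it sets this last median near 0. A rise or fall of H3K9ac shared by most domains could therefore not be seen. Gains lay at thinner domains with larger errors, where only a larger change can pass, so the sizes of gains and losses cannot be compared from these medians. A log2 change of at least 1, which is a doubling or halving, was measured at 226 gains and 32 losses, and one of at least 2 at 37 gains and 2 losses. The 3 CK-p25 libraries all lay above the 3 CK libraries at 488 of the 504 gains (8.8% of all tested domains did) and all lay below them at 492 of the 507 losses (8.45%). These counts come from the contrast that made the calls and add nothing to them. Without replicate 3 of both groups, 232 gains and 168 losses were called. The counts were 290 and 250 without CK replicate 2, 341 and 301 without CK replicate 3, and 298 and 180 without CK-p25 replicate 1. The DESeq2 Wald test called 211 and 243, and gave no adjusted p to 90 of the 504 gains and 20 of the 507 losses. With cross correlation as a covariate, 441 domains were higher and 365 lower, of which 388 and 329 were also called without it.

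The leading gain was peak37505 (chr16:23609351-23612236, 2886 bp). It held 23.4, 25.01 and 19.5 CPM in the CK libraries and 73.6, 83.7 and 81.9 CPM in the CK-p25 libraries, a 3.42-fold gain. CPM are reads in the domain relative to the library's reads in all tested domains, scaled by the TMM method. The second gain was peak34088 (chr14:56222081-56224150), at 26.9, 25.7 and 15.4 CPM in controls against 61.4, 72.3 and 61.1 CPM in CK-p25 libraries. Its log2 change was 1.42 ± 0.15 (SE), with an edgeR adjusted p of 1.22e-12. In both domains the lowest CK-p25 library was more than double the highest CK library. In peak12522 (chr5:115346882-115348607) the CK libraries were at 14.7, 15.8 and 4.10 CPM, and the CK-p25 libraries at 37.8, 45.9 and 38.6 CPM (log2 1.64 ± 0.19, edgeR adjusted p = 4.43e-10). Its low CK value was that of the shallow replicate 3, which held 4 reads there, and without that library the domain still passed.

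The CK level of peak32069 (chr13:37437294-37438908) was close to nothing: its libraries held 13, 6 and 1 reads, against 90, 56 and 31 reads in CK-p25 mice (4.16, 3.95 and 1.03 CPM against 21.9, 18.8 and 24.0 CPM). The ratio of the summed reads was 5.93, with an exact 95% interval of 3.73 to 9.95 that covers counting error only. At the other end, peak26808 (chr11:48682057-48686814, 4758 bp) was well acetylated in controls. It was at 90.5, 105 and 74.9 CPM in controls against 150, 175 and 160.0 CPM in CK-p25 mice, 1.76-fold. Gains were thus measured both at domains that were almost empty in controls and at domains that already held many reads there.

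Of the other leading gains, peak38410 (chr16:97756028-97759208) rose from 30.5 ± 4.13 to 70.2 ± 7.95 CPM (SD, n = 3 each), 2.21-fold. On chromosome 8, peak19772 (chr8:64406125-64407762) rose from 21.3 ± 2.64 to 56.8 ± 12.5 CPM, peak20030 (chr8:74060086-74062352) from 10.9 ± 4.20 to 36.8 ± 9.38 CPM and peak21111 (chr8:123259581-123264105) from 24.0 ± 0.899 to 54.1 ± 4.79 CPM. No tested domain lay within 100 kb of peak19772, whereas peak20030 had 21 such neighbours, 12 of them with a positive change and 0 called higher. The 3 domains lie far apart on the chromosome. peak29652 (chr11:118261276-118264154) rose 2.48-fold, peak37780 (chr16:35938311-35940032) 2.14-fold and peak21813 (chr9:32347566-32351036) 1.94-fold. In all 12 leading gains the groups did not overlap, as at 488 of the 504 gains and 8.8% of all tested domains. The 12 were chosen for the smallest adjusted p in this contrast, so the lack of overlap adds nothing to their calls. They passed in every alternative fit that was run (edgeR or DESeq2), with adjusted p-values of at most 5.23e-05.

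**Figure D1:**
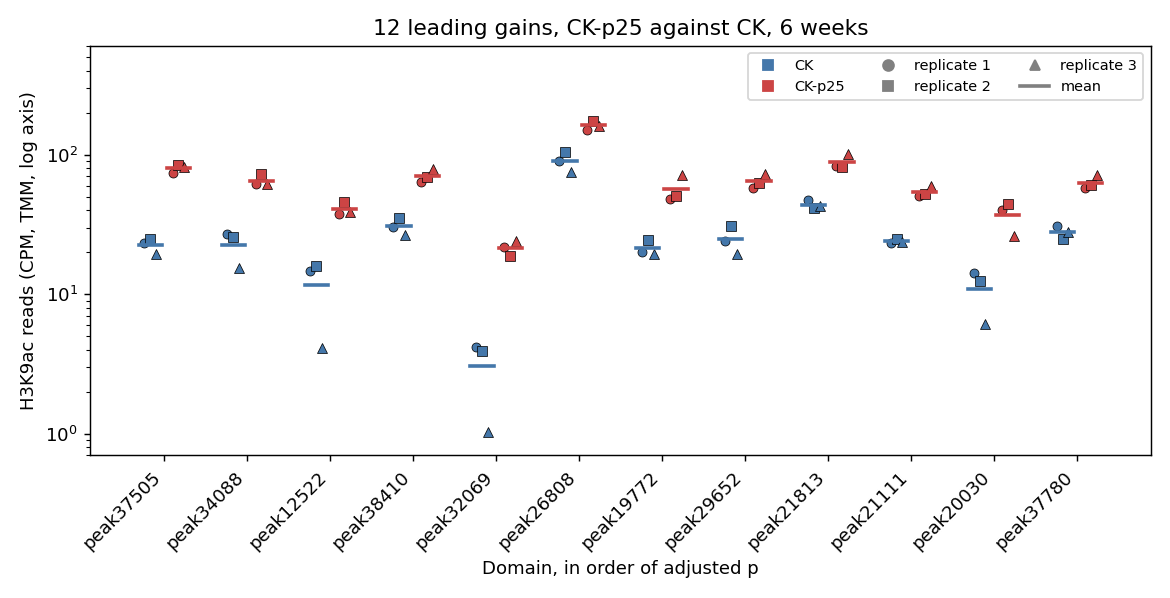
H3K9ac level (CPM on a log axis) of the 12 gains with the smallest adjusted p in each of the 3 CK and 3 CK-p25 libraries at 6 weeks; bars are group means and marker shapes are replicates. The CK-p25 libraries lie above the CK libraries in each domain, and the lowest CK values of peak12522, peak32069 and peak20030 are those of the shallow replicate 3.

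The largest gains by size were at narrow domains with almost no reads in controls. In peak39607 (chr17:37663005-37663417, 413 bp) the CK libraries held 2, 0 and 0 reads and the CK-p25 libraries 17, 17 and 10. The ratio of the summed reads was 14.8, with an exact 95% counting interval from 3.85 to 126. In peak42472 (chr19:12538598-12538827, 230 bp) the reads were 0, 1 and 1 against 14, 13 and 6, a ratio of 11.1 (2.83 to 95.2). The intervals show how little such ratios fix the size of a gain. peak41198 (chr18:52927251-52927560) had 2, 1 and 0 reads against 20, 8 and 7, a ratio of 7.82 (2.47 to 39.8). peak7467 (chr3:105707718-105707987) had 1, 2 and 0 against 16, 12 and 6, a ratio of 7.60 (2.39 to 38.7), and peak22667 (chr9:60905078-60905396) 4, 0 and 0 against 25, 7 and 12. These 5 gains passed edgeR's test with adjusted p-values of 0.000352 to 0.00968, and DESeq2 gave them no adjusted p. The filter for enough reads dropped all 5 when the 6-week libraries were fitted alone. In the fit of 12 libraries no CK library exceeded 3.10 CPM in them, so the filter kept them through CK-p25 libraries. Their near-empty controls are thus partly a product of how domains were kept. Without CK replicate 1, peak42472, peak7467 and peak41198 lost their call (edgeR adjusted p = 0.219, 0.179 and 0.0668). Without CK-p25 replicate 1, peak41198 and peak22667 did (0.102 and 0.0547). peak39607 was called with each library left out in turn.

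Losses were measured at strongly acetylated, broad domains. The leading loss, peak32067 (chr13:36821380-36828820, 7441 bp), was at 175, 211 and 224 CPM in controls against 129, 142 and 114 CPM in CK-p25 libraries, so the CK level was 1.52 times that of CK-p25 mice. peak30530 (chr12:62622209-62628110) was at 140.1, 139.5 and 151 CPM in controls against 95.1, 91.4 and 76.5 CPM, and its log2 change was -0.66 ± 0.10 (SE), with an edgeR adjusted p of 1.07e-06. No other tested domain lay within 100 kb of it. The widest of the leading losses was peak26542 (chr11:23973234-23984917, 11684 bp), at 368, 372 and 366 CPM in controls against 247, 286 and 252 CPM.  The SD of its CK libraries was 3.00 CPM, and its loss was -0.49 ± 0.07 on the log2 scale.

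The loss of largest fold among the 12 was peak4368 (chr2:110788865-110790860), which was also the narrowest at 1996 bp. It was at 49.0, 59.2 and 44.1 CPM in controls against 28.0, 26.5 and 27.1 CPM (log2 -0.90 ± 0.15, edgeR adjusted p = 1.31e-05). peak15142 (chr6:96062491-96067483) fell from 110 ± 6.38 to 67.5 ± 4.71 CPM and peak6160 (chr3:17952392-17957676) from 149 ± 10.9 to 91.3 ± 18.1 CPM (SD, n = 3 each). peak34319 (chr14:65203968-65212553) fell from 280 ± 25.6 to 194 ± 22.7 CPM. CK-p25 replicate 3 was the lowest of its group in peak6160 (70.3 CPM) and peak34319 (176 CPM), and in all other leading losses but peak26542, peak4368 and peak44080.

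Of the remaining leading losses, peak29698 (chr11:118766494-118771665) had a log2 change of -0.58, peak36632 (chr15:95354557-95359553) of -0.60, peak30646 (chr12:73333955-73338359) of -0.62 and peak4923 (chr2:143371842-143375088) of -0.64. peak44080 (chrX:154475537-154481254), on the X chromosome, fell from 137 ± 10.4 to 88.1 ± 15.1 CPM. Around peak29698, 17 of 20 tested neighbours within 100 kb had a negative change, though 0 of them were called. Around peak36632 all 7 did and 1 was called. The groups did not overlap in any of the 12 leading losses, as at 492 of the 507 losses and 8.45% of all tested domains. Here too the choice by smallest adjusted p means that this adds nothing to the calls. The 12 passed in every alternative fit that was run (edgeR or DESeq2), with adjusted p-values of at most 0.00596. Their CK-p25 level was 0.536 to 0.712 times the CK level.

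**Figure D2:**
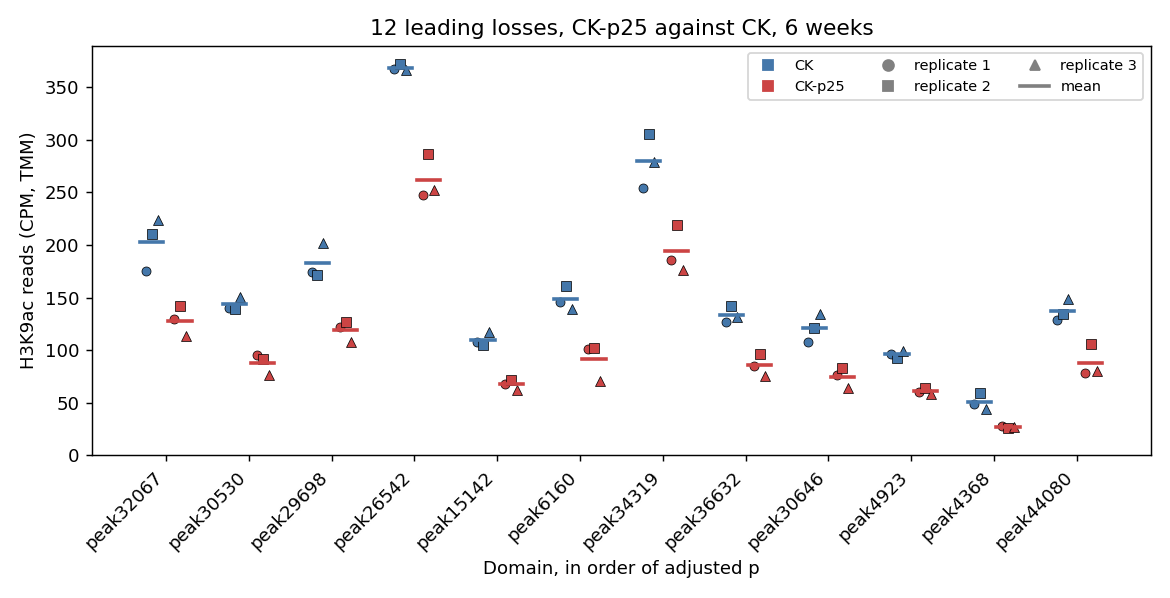
H3K9ac level (CPM, axis from 0) of the 12 losses with the smallest adjusted p in each of the 3 CK and 3 CK-p25 libraries at 6 weeks; bars are group means and marker shapes are replicates. CK-p25 libraries lie below CK libraries in each domain, and most of these domains hold over 100 CPM in controls.

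As with gains, the losses of largest size were at narrow, thinly covered domains. peak27531 (chr11:71470693-71470949, 257 bp) held 15, 7 and 9 reads in the CK libraries and 2, 4 and 1 in the CK-p25 libraries. That is a ratio of CK-p25 to CK of 0.151 (exact 95% counting interval 0.0563 to 0.351). No CK-p25 library at 2 or 6 weeks exceeded 2.20 CPM there, so the filter for enough reads kept this domain through CK libraries. peak33086 (chr13:101364144-101364581) held 21, 16 and 2 reads against 8, 3 and 0, and peak42808 (chr19:37350130-37350934) 41, 14 and 4 against 16, 2 and 5. peak6219 (chr3:29034661-29035228) and peak3104 (chr2:30818586-30818973) had log2 changes of -1.84 ± 0.47 and -1.76 ± 0.46. DESeq2 gave no adjusted p to these 5 losses, and each lost its call when at least 1 library was left out. peak27531 lost it without CK-p25 replicate 1 (edgeR adjusted p = 0.116) and peak42808 without CK replicate 1 (0.186). peak33086 lost it when any of CK replicates 1 and 2 and CK-p25 replicates 2 and 3 was left out (0.0521 to 0.174), and peak6219 and peak3104 without CK replicate 2 (0.283 and 0.223) or CK-p25 replicate 2 (0.0507 and 0.106).

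Broad domains were called more often than narrow ones, and more of their calls were losses. Of the 713 tested domains of 5000 bp or more, 119 (16.7%) were lower and 22 (3.09%) higher in CK-p25 mice, and their median log2 change was -0.08. Of the 7581 domains from 2000 bp to under 5000 bp, 289 (3.81%) were lower and 162 (2.14%) higher. In narrower domains gains were the more frequent call: of 10150 domains from 1000 bp to under 2000 bp, 68 (0.670%) were lower and 175 (1.72%) higher. Of 9423 domains under 500 bp, 8 were lower and 43 higher. Losses had a median width of 3402 bp and gains one of 1608 bp, against 956 bp over all tested domains. Broad domains of acetylation tend to lie at genes that are strongly and steadily transcribed in the tissue.

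Broad domains hold more reads, so a change of a given size is easier to detect there. The median SE was 0.09 at domains of 5000 bp or more and 0.48 at those under 500 bp. Among domains with a mean of 200 to 500 reads over the 12 libraries, 87 of 483 (18.0%) were lower at 5000 bp or more, and 136 of 2930 (4.64%) from 2000 bp to under 5000 bp. In the same classes 16 (3.31%) and 27 (0.922%) were higher, so at these depths both directions were called more often in the broader class. This range of reads was chosen after seeing the data. The broader class still held more reads (median 357 against 248), with a median SE of 0.09 against 0.10. Among domains of 2000 bp to under 5000 bp, the balance differed with depth: 47 were higher and 22 lower of the 1304 with a mean of 27.2 to 101 reads, and 115 higher and 267 lower of the 6276 with more. Among the 2541 of 1000 bp to under 2000 bp with more than 101 reads, 15 were higher and 16 lower. Of a library's reads in domains, the 713 broadest held 11.1%, 11.3% and 11.3% in the CK libraries. In the CK-p25 libraries they held 10.6%, 10.8% and 10.4%, with no overlap.

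**Figure D3:**
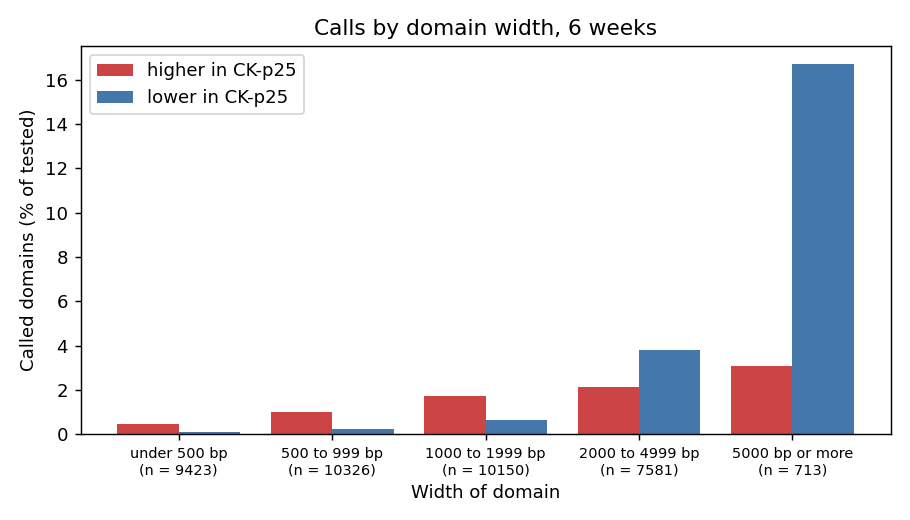
Share of tested domains called higher or lower in CK-p25 mice at 6 weeks (%, axis from 0), by domain width in bp, with the number of domains tested in each class. Losses reach 16.7% of domains of 5000 bp or more, while gains go from 0.456% of the narrowest class to 3.09% of the broadest.

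The density of the mark in controls also went with the direction. Density was taken from the CK libraries at 2 weeks, which are not part of the 6-week contrast, and the tested domains were split, after seeing the data, into 4 classes of equal size. In the class of lowest density (8.57 CPM per kb or less), 233 of 9549 domains (2.44%) were higher and 13 lower. In the second class 79 (0.827%) were higher and 32 (0.335%) lower, and in the third 151 (1.58%) and 110 (1.15%). In the class of highest density (20.1 CPM per kb or more), 41 of 9548 (0.429%) were higher and 352 (3.69%) lower. The share of losses thus rose from class to class, while that of gains did not fall steadily. Width and depth, which limit what can be called, were not held alike across the classes.

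Changes extended to close neighbours. Over all tested domains, 49.7% had a positive and 50.3% a negative change, a balance that the scaling of the libraries favours. Neighbours were counted from each call in turn, so a domain near several calls counts for each. Within 1 kb of a gain, edge to edge, 223 of 239 neighbours (93.3%) had a positive change, at a median log2 of 0.62, and 52 were called higher themselves. At losses 198 of 243 such neighbours (81.5%) had a negative change, at a median of -0.31. Of all 7932 pairs of tested domains within 1 kb, each counted once, 59.9% shared a sign. Library fragments were 300 to 600 bp long by the labels' protocol, so domains this close can share part of their signal. At 5 to 20 kb, 70.0% of 724 neighbours of gains and 67.5% of 661 neighbours of losses had the sign of the call (54.7% of all pairs). At 50 to 100 kb these shares were 57.8%, 53.3% and 51.5%.

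More gains than losses had another call of their direction nearby. When called domains of the same direction were joined over gaps of up to 100 kb, 171 of the 504 gains (33.9%) fell into 71 runs of 2 or more, and 66 of the 507 losses (13.02%) into 32 runs. A difference between these shares was not tested. They move with the allowed gap, to 27.6% and 10.1% at 50 kb and to 43.1% and 24.9% at 250 kb. Without replicate 3 of both groups they were 26.7% and 5.95%. The share of losses in runs was 7.60% without CK replicate 2, 7.64% without CK replicate 3 and 2.22% without CK-p25 replicate 1. What share would fall into runs by the spacing of domains alone was not estimated. Within 1 kb, 21.8% of neighbours of gains were called higher and 8.23% of neighbours of losses lower. At 20 to 50 kb these shares were 5.26% and 0.975%, and at 50 to 100 kb 3.38% and 0.959%. Over all tested domains they were 1.32% and 1.33%, so from 20 to 100 kb losses had no excess of other called losses. Signs still leaned at 20 to 50 kb: 61.6% of neighbours of gains and 59.1% of neighbours of losses had the sign of the call (52.6% of all pairs). Width and depth of the neighbours were not held alike.

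The first of 2 runs with 6 gains, the most in any run, lay on chromosome 19 from 34658165 to 34717089. There 6 domains were called higher within 58.9 kb, and all 8 tested domains had a positive change. Counts of signs in this run and those below include the calls that define the run, so to that extent they were fixed in advance. In peak42766 (chr19:34681767-34683427) the CK libraries were at 15.0, 21.7 and 15.4 CPM and the CK-p25 libraries at 30.7, 39.2 and 31.7 CPM (log2 1.00 ± 0.18). In peak42768 (chr19:34714541-34715995) they were at 13.4, 11.2 and 10.3 against 30.0, 31.8 and 37.1 CPM (log2 1.39 ± 0.20, edgeR adjusted p = 5.27e-07). The summed level of the 6 domains was 40.6 CPM in controls against 108 CPM in CK-p25 mice. All 6 were also called higher at 2 weeks.

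A second run of 6 gains lay on chromosome 17 from 36135343 to 36259805 (124 kb), in which all 10 tested domains had a positive change. Its most strongly acetylated member, peak39568 (chr17:36178679-36180914), was at 27.5, 27.6 and 26.7 CPM in controls against 49.0, 51.9 and 58.7 CPM (log2 0.92 ± 0.15). peak39565 (chr17:36156483-36158415) rose by 1.14 ± 0.22 and peak39571 (chr17:36257665-36259464) by 1.06 ± 0.21 on the log2 scale. The third run, on chromosome 11 from 82766381 to 82880959, held 5 gains among 6 tested domains. There peak28082 (chr11:82878636-82879793) was at 6.72, 2.63 and 0 CPM in controls against 18.5, 17.8 and 17.8 CPM in CK-p25 mice, so that the CK libraries spread widely and the CK-p25 libraries did not.

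Runs of losses held fewer calls, at most 3. On chromosome 18 from 61081121 to 61108137, 3 broad domains were called lower within 27.0 kb, and all 5 tested domains had a negative change. peak41348 (chr18:61081121-61092219, 11099 bp) was at 268, 286 and 319 CPM in controls against 201, 228 and 192 CPM in CK-p25 mice (log2 -0.46 ± 0.08, edgeR adjusted p = 4.33e-05). peak41350 (chr18:61094282-61097740), the next called domain along, was at 56.3, 57.3 and 80.0 against 35.1, 34.8 and 37.9 CPM (log2 -0.79 ± 0.14). On chromosome 19 from 10374846 to 10531855, 3 losses stood among 13 tested domains, 8 of which had a negative change. All other runs of losses were pairs, and the third was picked among them for the largest mean size of log2 change. It lay on chromosome 19 and held peak42806 (chr19:37338360-37339548) and peak42808, whose log2 changes at 2 weeks were -0.00 and -0.24.

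**Figure D4:**
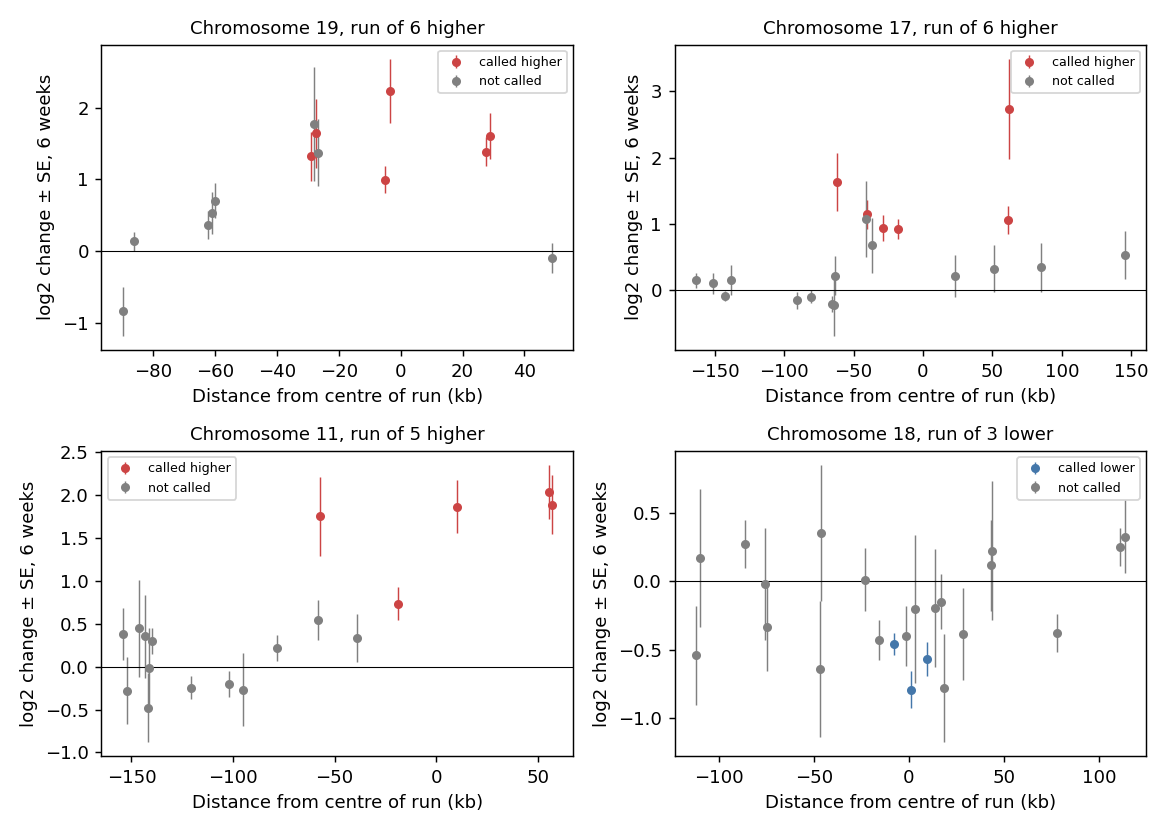
log2 change (CK-p25 minus CK, with its SE) at 6 weeks of every tested domain in the 3 leading runs of gains and the leading run of losses, with 100 kb on either side, against the distance in kb from the centre of the run. Because runs were joined over gaps of up to 100 kb, the flanks can hold no call of the run's direction.

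Reads summed over bins of 1 Mb were higher in CK-p25 mice in 126 of 2266 bins (5.56%) and lower in 143 (6.31%). Of these, 34 and 25 held no domain called in that direction. Without replicate 3 of both groups 30 and 36 bins passed. The counts were 61 and 58 without CK replicate 2, 68 and 72 without CK replicate 3, 59 and 48 without CK-p25 replicate 1, and 66 and 72 without CK-p25 replicate 3. With cross correlation as a covariate 97 and 93 passed. At 2 weeks, where 2.6% of bins were called higher and 1.06% lower, 120 of the 126 higher bins had a positive change and 35 were called, and 132 of the 143 lower bins had a negative change and 11 were called.

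The bins named here and below were chosen for the smallest adjusted p in this contrast. The signs and levels of their domains, called or not, carry that choice. The leading bin, on chromosome 7 from 111 to 112 Mb, went from 40.8 ± 4.93 to 88.2 ± 8.60 CPM (SD, n = 3 each), and 5 of its 8 domains were called higher. The bin on chromosome 13 from 37 to 38 Mb holds peak32069 but rose more widely. It went from 203 ± 9.21 to 282 ± 4.54 CPM (log2 0.46 ± 0.06 SE, edgeR adjusted p = 2.93e-05), and 15 of its 16 domains had a positive change. Its 14 uncalled domains together went from 150.2 to 179.7 CPM, a log2 ratio of 0.26. On chromosome 8 from 64 to 65 Mb, where peak19772 lies, the 4 uncalled domains went from 22.6 to 31.8 CPM. On chromosome 7 from 20 to 21 Mb, the summed level of 41 domains rose from 998 ± 35.1 to 1172 ± 41.8 CPM (log2 0.22 ± 0.03, edgeR adjusted p = 0.000153), with 3 domains called and 31 of positive sign. A rise of 0.21 ± 0.04 on chromosome 6 from 125 to 126 Mb was of the same kind, with 4 of 36 domains called and 29 of positive sign.

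Among bins that fell, the one on chromosome 6 from 55 to 56 Mb had no called domain. Its 12 domains summed to 400.2 ± 9.97 CPM in controls against 329.6 ± 10.2 CPM (log2 -0.28 ± 0.05, edgeR adjusted p = 0.00113), and 11 of the 12 had a negative change. On chromosome 16 from 9 to 10 Mb all 13 domains had a negative change and 1 was called. The bin fell from 247 ± 23.7 to 169.7 ± 9.72 CPM, and its 12 uncalled domains together were at 80.5 and 48.9 CPM. Other bins rested on single domains: chromosome 12 from 62 to 63 Mb held peak30530 alone, and chromosome 6 from 96 to 97 Mb held peak15142 and 1 other domain. On chromosome 3 from 26 to 27 Mb, 2 of 3 domains were called and the log2 change of the bin was -0.41. On chromosome 1 from 77 to 78 Mb, 2 of 8 were called and it was -0.37.

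The comparison 2 weeks after induction used 6 other libraries, from mice of 3.5 months, so time and age changed together between them. Of the 504 gains at 6 weeks, 485 (96.2%) had a positive change at 2 weeks, where 49.3% of all tested domains did, with a median of 0.69 on the log2 scale. Of the 507 losses, 468 (92.3%) had a negative change (50.7% of all), with a median of -0.24. At 2 weeks 577 domains (1.51%) were called higher and 234 (0.613%) lower. The 273 gains called at both times were 54.2% of those at 6 weeks and 47.3% of those at 2 weeks. The 115 losses called at both were 22.7% and 49.1%, and 0 domains were called in opposite directions. The DESeq2 Wald test called 265 higher and 39 lower at 2 weeks.

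Read from the other side, domains called at 2 weeks were followed into the 6-week libraries. The median change of the 577 gains was 1.09 at 2 weeks and 0.77 at 6 weeks, and that of the 234 losses was -0.39 and -0.37. Domains chosen for passing at a time are chosen for a large value at that time, so a smaller value at the other is no sign of a decline. The 577 gains took 1.23%, 1.16% and 1.10% of the reads in domains of the CK libraries at 6 weeks. In the CK-p25 libraries they took 1.74%, 1.73% and 1.84%. The 234 losses took 1.98%, 2.04% and 2.20% against 1.57%, 1.71% and 1.48%. In both sets the groups did not overlap. The 2-week contrast sets no 6-week library against another, but the filter, scaling and spread were estimated from all 12 libraries, and without replicate 3 of both 6-week groups it gave 657 gains and 297 losses.

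The leading gains at 6 weeks were present at 2 weeks with sizes on both sides of the 6-week value. peak37505 was at 1.77 ± 0.14 (log2 change with SE) at 6 weeks and 2.42 ± 0.13 at 2 weeks, peak12522 at 1.64 ± 0.19 and 2.33 ± 0.17, and peak26808 at 0.82 ± 0.10 and 1.24 ± 0.09. In contrast, peak32069 was at 2.56 ± 0.30 and 2.03 ± 0.22, and peak21813 at 0.95 ± 0.12 and 0.63 ± 0.10. These 5 differences between times did not pass edgeR's test (adjusted p = 0.964 to 0.999). All 12 leading gains were called at 2 weeks. Of the 12 leading losses 6 were called, and all but peak30646 had a negative change there. For peak26542 the change was -0.49 ± 0.07 at 6 weeks and -0.24 ± 0.07 at 2 weeks, and for peak34319 -0.50 ± 0.08 and -0.14 ± 0.07.

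Of the losses, 488 of 507 were larger in size at 6 than at 2 weeks, as were 351 of the 504 gains. The 6-week values chose these domains, so these counts carry that choice. In edgeR's test of the difference itself, 2 of 38193 domains passed (0.00524%), peak30646 and peak25737, and 1817 (4.76%) had an unadjusted p under 0.05. DESeq2 called 0, as did edgeR without replicate 3 of both groups or without CK replicate 2 or 3. Between the controls alone (CK at 6 against 2 weeks) 1 domain passed (0.00262%). For the difference, leaving out CK-p25 replicate 1 or 3 gave 1 and leaving out CK-p25 replicate 2 gave 8. The 6-week gains that differed most from 2 weeks were thinly covered. peak39465 (chr17:34878253-34878563) held 3, 1 and 1 reads in CK and 17, 13 and 10 in CK-p25 libraries at 6 weeks, and its log2 change at 2 weeks was -0.21 ± 0.72. Outside the CK-p25 libraries at 6 weeks no library exceeded 1.55 CPM there, so the filter for enough reads kept it through that group. peak41695 (chr18:74129074-74129580) held 7, 3 and 1 against 26, 23 and 10 reads. Among losses, peak8948 (chr4:87047384-87047835) held 17, 11 and 3 against 6, 6 and 3 reads. The difference between times did not pass for these 3 domains (edgeR adjusted p = 0.964 to 0.974), and each lost its 6-week call when CK replicate 1 or 2 was left out (0.0750 to 0.242).

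**Figure D5:**
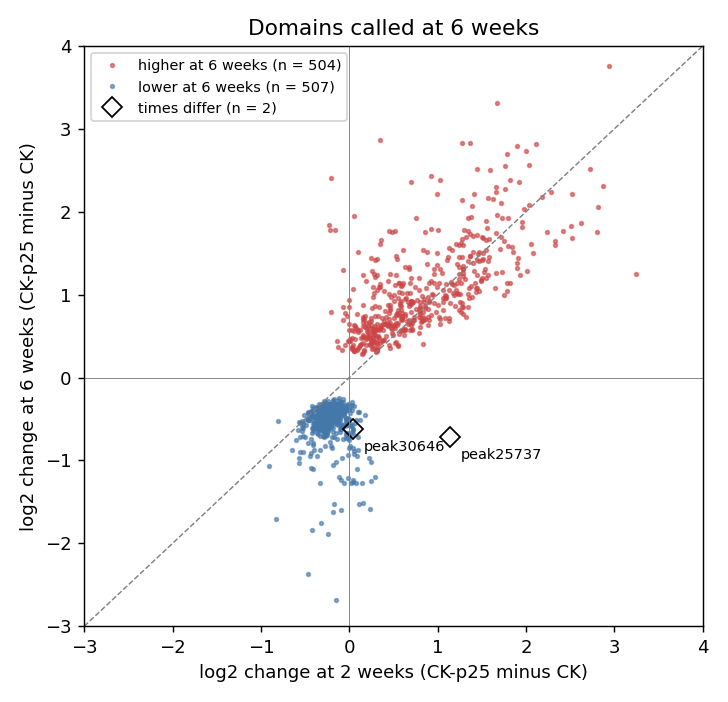
log2 change (CK-p25 minus CK) at 6 weeks against that at 2 weeks for the 504 domains called higher and 507 called lower at 6 weeks; the dashed line marks equal change and diamonds the 2 domains whose change differed between times, 1 of which was not called at 6 weeks. Gains lie on both sides of the line but mostly above it (351 of 504), and losses mostly below it (488 of 507). The domains were chosen by their 6-week values, which favours both.

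The shallow replicates 3 were also read on their own. When domains were called from the 2 deeper libraries of each group, 231 of those higher and 168 of those lower were among the tested domains. In the replicates 3, which had no part in these calls, 226 of the 231 gains (97.8%) were higher in the CK-p25 library and 161 of the 168 losses (95.8%) lower, where 50.8% and 49.2% of all tested domains were. The median log2 change of the gains was 1.06 in the 2 deeper libraries of each group and 1.07 between the replicates 3, and that of the losses -0.50 and -0.60. The former come from edgeR's fit and the latter from log2 CPM with a prior count of 2, so the sizes are not strictly alike. The replicates 3 are a single pair of libraries, so the domains are not separate evidence. The direction at most of these domains was thus the same between the shallow libraries as between the deeper ones.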

How the data were processed

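The authors deposited whole-number counts of reads in each domain, not normalized, and the positions of the domains. BWA, Picard 1.1175, MACS2 and build mm9 are named in the submitters' processing notes, with no roles. Per the series' design text, 1 set of domains was made for all libraries, with input DNA as the control in peak calling. The sources used here do not state if peak calling pooled the samples. Reads were single-end, per the labels. The exact intervals of read ratios were computed from reads summed over the libraries of each group, so they cover counting error and not the spread between libraries. Input libraries have no column in the count file and were not analysed here.

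Counts of the 12 libraries at 2 and 6 weeks were fitted together with edgeR 4.0.16 in R 4.3.3 (quasi-likelihood F test, robust, TMM, filterByExpr), with a mean per group. Tests were two-sided, with Benjamini-Hochberg adjustment over all tested domains and a threshold of 0.05. The SE is the size of the log2 change over the square root of F. CPM are scaled by the TMM library sizes, separately for domains and bins. Reads summed by domain midpoint in 1 Mb bins were tested alike. Replicate pairs differed beyond sampling noise (chi-square per degree of freedom 1.28 to 1.49), so each library counts once.

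Named domains are, in each direction, the 12 with the smallest adjusted p and a log2 change of at least 0.3, the 5 largest changes, the 3 runs with the most calls, the 3 that differ most from 2 weeks, and those whose change differed between times. Ties between runs were settled by the mean size of log2 change. Named bins come from the 8 with the smallest adjusted p in each direction. Members, lists and rules were chosen with earlier results of these data known. Alternatives were other scalings (DESeq2 size factors, library totals), no filter, the DESeq2 1.42.0 Wald test, the 6-week groups alone, a replicate block, cross correlation as a covariate, a threshold of 0.01, autosomes alone, other bin sizes and gaps, and libraries left out.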

Additional observations from a re-analysis of the deposited data

Results flagged for a closer look

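In 2 domains the change from CK to CK-p25 mice passed an edgeR test for a difference between 6 and 2 weeks, and both lost that call in several alternatives. In peak25737 (chr10:99062373-99063196) the difference was -1.86 ± 0.34 (log2, SE; adjusted p = 0.00762). Its CK libraries were at 15.0, 19.1 and 23.6 CPM and its CK-p25 libraries at 11.5, 9.71 and 11.6 CPM at 6 weeks, while at 2 weeks they were at 11.7, 5.94 and 6.15 against 15.7, 14.6 and 22.0 CPM. The difference no longer passed without CK replicate 2 (edgeR adjusted p = 0.0583) or 3 (0.0667), without replicate 3 of both groups (0.0764) or in the DESeq2 Wald test (0.219). The groups did not overlap at either time, and the order of the groups was opposite. The 6-week change alone did not pass (-0.72 ± 0.24, edgeR adjusted p = 0.0951). In controls alone the level was 1.21 higher at 6 weeks on the log2 scale (edgeR adjusted p = 0.126).

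In peak30646 (chr12:73333955-73338359, 4405 bp) the difference was -0.66 ± 0.13 (edgeR adjusted p = 0.0372). It did not pass in the same 4 alternatives, with cross correlation as a covariate, or without CK-p25 replicate 1 or 3. At 6 weeks the CK libraries were at 108, 121 and 134 CPM and the CK-p25 libraries at 76.6, 83.1 and 64.1 CPM, with no overlap. At 2 weeks they were at 98.5, 93.7 and 108 CPM against 105, 97.5 and 102 CPM, and overlapped. Its change between the controls was 0.25 (edgeR adjusted p = 0.816).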

How the results depend on the processing

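Domain and bin counts at 6 weeks stayed within 1.5 times under DESeq2 size factors, library totals, no filter, the 6-week groups alone, autosomes alone and the replicate block, and among the scalings the split of calls moved most with library totals (549 higher, 431 lower). Deviations of same-numbered libraries at 6 weeks had Pearson r of 0.00677 to 0.0203 across domains, against -0.0271 to 0.0157 for the other pairs. Counting noise at thinly covered domains lowers such values, so they cannot tell if the numbers pair libraries. The replicate block gave 556 higher, 630 lower and 5 differences between times. The DESeq2 Wald test gave 211 higher and 243 lower at 6 weeks, 0 differences, and 265 and 39 at 2 weeks. Cross correlation as a covariate gave 93 lower bins and 1 difference. A threshold of 0.01 left 247 and 229 domains, 46 and 46 bins, 1 difference, and 378 and 94 domains at 2 weeks. Bins of 2 Mb gave 77 higher and 72 lower. Without both shallow libraries, 232 and 168 domains, 30 and 36 bins and 0 differences passed. Leaving out a single 6-week library gave 290 to 490 higher and 180 to 591 lower domains, 59 to 150 higher and 48 to 208 lower bins, 0 to 8 differences, and 566 to 617 higher and 217 to 276 lower domains at 2 weeks. The cause of these moves was not tested. No named domain reversed its direction in the alternatives that gave it a value. Depth limits narrow domains most: 1 read in CK replicate 3 is about 1 CPM.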
